A study of Mus musculus with 4 samples.

Results

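The hnRNP and SR splicing factors were measured in the mouse fibroblast line NIH3T3, transfected either with siTIMP1, an siRNA against the protease inhibitor gene Timp1, or with the control siRNA named siControl. Members were all genes named Hnrnp or Srsf with every one of their array probes, 31 of 37074 gene names and 75 of 56605 probes. There were 20 Hnrnp genes (50 probes) and 11 Srsf genes (25 probes). The family was selected on a measured value of this same comparison, the lower Hnrnpa0 signal with siTIMP1. Counts and fold changes of the members are therefore given as descriptions, with nothing supported by them. No p-value of a single member is given.

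There were 4 one-colour arrays, 2 per group. Both groups received their siRNA on apatite nanoparticles (sCA in the labels) and grew in 2% fetal calf serum, so carrier and serum are common to controls and treated cells. Untransfected cells were not analysed here. All samples came from 1 cell line, which the labels call mouse dermal fibroblasts, and the labels do not say whether arrays of a group came from separate cultures. The spread behind any p-value given here is therefore that of the arrays alone and may be technical.

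Heterogeneous nuclear ribonucleoproteins (hnRNPs) coat nascent transcripts and often repress the use of nearby splice sites, and several also act on mRNA stability, transport and translation. SR proteins carry RNA recognition motifs and a tail rich in arginine and serine, and typically promote exon inclusion by recruiting the spliceosome to exonic enhancers. Many genes of both families regulate their own output by splicing in or out an exon that sends the transcript to nonsense-mediated decay, so that probes on different parts of such a gene can detect different transcripts.

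Only the sequences of 7 probes are shown, for Hnrnpa0 and for pairs of Hnrnpk, Srsf3 and Srsf5 probes compared below. Each is the array's own probe, 5′ to 3′, with its position in the mouse build mm9. The Hnrnpa0 probe (chr13:58227371-58227430, minus strand, from base 2487 of the transcript it was assigned to) is the gene's sole probe. The Hnrnpk probes lie at chr13:58501255-58501314 (base 242) and chr13:58494558-58494617 (base 1447), both on the minus strand. The Srsf3 probes lie at chr17:29173333-29173392 (base 274) and chr17:29178485-29178544 (base 752), plus strand. For Srsf5, the probe from base 438 spans 650 bases of genome, chr12:82047706-82048355, and thus crosses a splice junction, while the probe from base 367 of another transcript lies inside that span at chr12:82047730-82047789. Of Hnrnpa0, Srsf3 base 752 and Srsf5 base 367 the leading 30 of 60 bases are shown, of the rest all 60. Capitals mark runs of at least 8 bases that the Srsf3 base 274 and Srsf5 base 438 probes share, 20 bases in each.
Hnrnpa0 base 2487: ggtgcaagttgtaaaacaaaatatctgtat
Hnrnpk base 242: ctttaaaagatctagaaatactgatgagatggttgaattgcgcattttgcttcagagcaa
Hnrnpk base 1447: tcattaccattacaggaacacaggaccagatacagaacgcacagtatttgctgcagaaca
Srsf3 base 274: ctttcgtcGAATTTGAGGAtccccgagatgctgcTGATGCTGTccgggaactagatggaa
Srsf3 base 752: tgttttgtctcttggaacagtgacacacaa
Srsf5 base 438: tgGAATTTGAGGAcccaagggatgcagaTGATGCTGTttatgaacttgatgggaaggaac
Srsf5 base 367: aattatctgtcgagaagttaggtaactttg

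Over all pairs of member probes of different genes, the longest run of bases in common was 13, between a probe of Hnrnpa1 and a probe of Hnrnpl. Whether each probe lies in coding sequence or in a UTR was not analysed here.

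Levels are log2 of the processed spot signal minus the 75th percentile of its array, and differences are siTIMP1 minus siControl each given with its standard error (SE) from limma. A probe was tested when either group had it well above background on both its arrays, and called when limma's adjusted p over all 26015 tested probes was under 0.05. The siRNA target was measured by 1 Timp1 probe (chrX:20451675-20451733), whose signals were 53297 and 67559 with siControl and 1840 and 1492 with siTIMP1. Timp1 fell by 5.22 on the log2 scale (SE 0.158, limma adjusted p = 0.0105), to 2.68% of the control level. Between 45.9% and 52.1% of spots per array were well above background, lowest on siTIMP1 replicate 2, and no member spot carried an outlier flag. All 10 fibroblast markers listed were tested, against 3 of 6 keratinocyte, 4 of 6 leukocyte and 1 of 6 endothelial markers. None of these markers was called by limma (at an unadjusted p under 0.05, 1 fibroblast, 1 keratinocyte, 2 leukocyte and 0 endothelial markers). All arrays lay on 1 slide, with the groups at different positions, so position on the slide and group cannot be told apart.

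Of the 75 member probes, 67 in 30 genes were tested. Among them 2 were called lower, the Hnrnpa0 probe and the Hnrnpk probe at base 242, and 0 were called higher. Over all tested probes 0.688% were called, 0.627% lower and 0.0615% higher. Without Hnrnpa0, 1 of 66 was called. At limma's unadjusted p under 0.05 there were 22 members, 15 lower and 7 higher (32.8% of those tested). Over all tested probes the share was 18.4%, with 7.70% lower and 10.6% higher. Leaving out Hnrnpa0, whose fall chose the family, the member count was 21 of 66 (31.8%). No test of the set was run. The member differences ran from -1.49 to 0.48 with a median of -0.04, against a median of 0.02 for all tested probes. Of the members 39 were negative and 28 positive, against 12251 and 13764 of all tested probes. Another scaling between arrays changed the sign of 8 member probes, each within 0.06 of 0. The median was -0.06 over the 47 Hnrnp probes and 0.05 over the 20 Srsf probes. A difference smaller than 0.25 in size was found for 46 of the 67 members (68.7%) and for 65.3% of all tested probes.

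**Figure D1:**
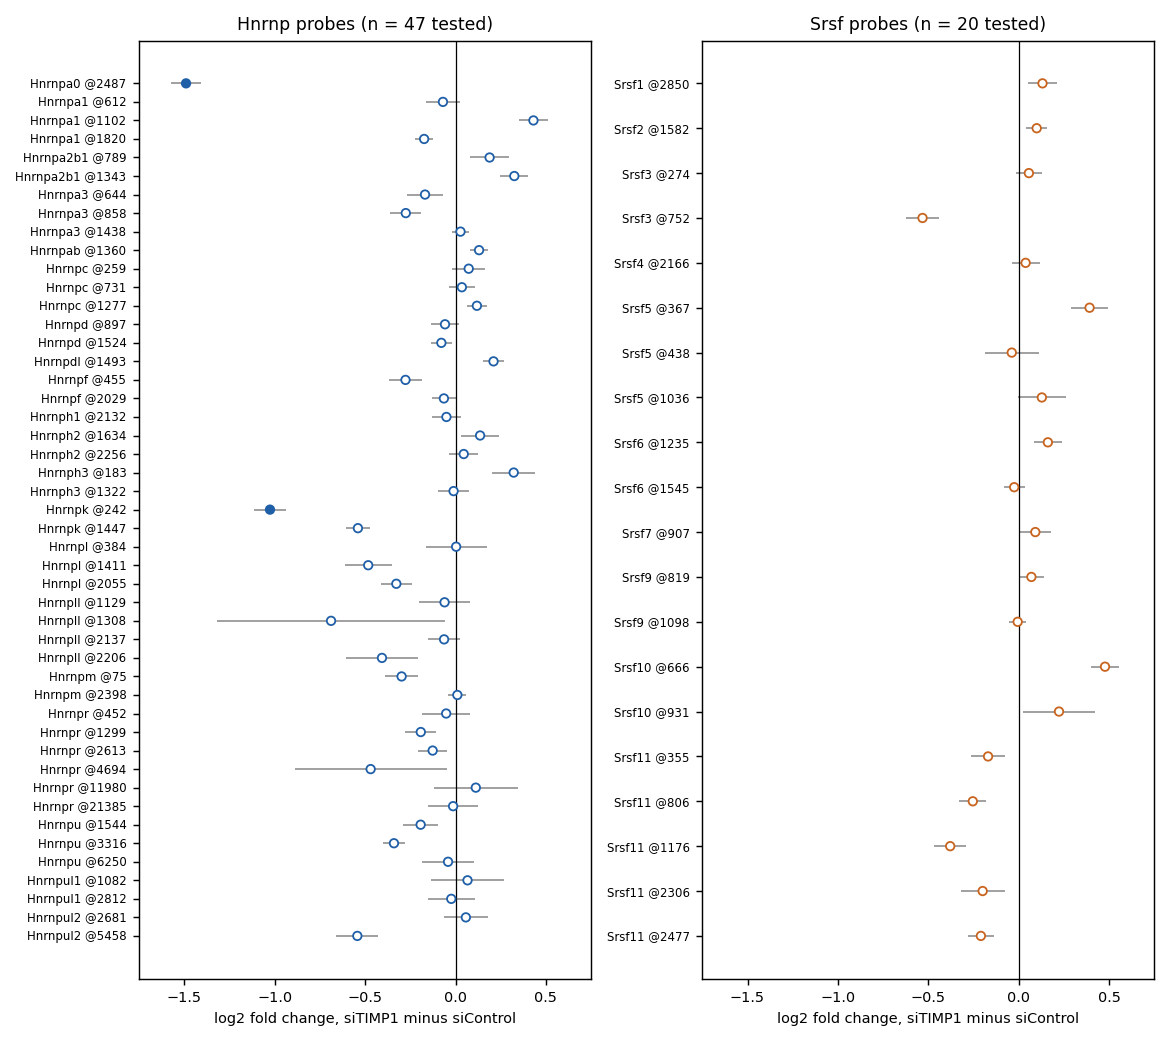
The log2 fold change (horizontal axis, siTIMP1 minus siControl) of each tested probe, with bars of 1 SE, for 47 Hnrnp probes (left) and 20 Srsf probes (right); each label gives the gene and the base of its transcript where the probe starts, and filled points are called. Most probes lie near 0, and the filled points are Hnrnpa0 at -1.49 and the base 242 probe of Hnrnpk at -1.03.

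Hnrnpa0, an A/B-type hnRNP that binds AU-rich elements of inflammatory mRNAs, had levels of 4.30 and 4.30 with siControl and 2.91 and 2.71 with siTIMP1. Its spot signals were 3663 and 3587 with siControl and 1424 and 1244 with siTIMP1. Both siTIMP1 arrays were low and the groups were far apart. The probe fell by 1.49 on the log2 scale (SE 0.0845), to 35.6% of control, the lowest value among the tested members. In such bulk cultures, fewer cells with a transcript and less of it per cell cannot be told apart.

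Hnrnpk encodes a KH-domain protein that binds C-rich RNA and DNA and takes part in transcription as well as RNA processing. Its base 242 probe had levels of 1.41 and 1.36 with siControl and 0.31 and 0.41 with siTIMP1. It fell by 1.03 (SE 0.0895), to 49.1% of control. The base 1447 probe had levels of 2.76 and 2.77 with siControl and 2.21 and 2.24 with siTIMP1. Its difference of -0.54 (SE 0.0677) was not called, although on both probes each siTIMP1 array was below each siControl array. Both Hnrnpk probes were thus low on the same arrays, with differences that were 0.49 apart on the log2 scale. With quantile normalization, with a percentile taken over detected probes or with robust variance moderation, the base 1447 probe was called too.

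The number of calls rested on single arrays and on the variance model. Leaving out siTIMP1 replicate 1 or siTIMP1 replicate 2 left no calls among the members or among all probes. A fit without the mean-variance trend also left 0 calls. In that fit 16 of 67 members and 4216 of 26015 probes were at limma's unadjusted p under 0.05. Leaving out siControl replicate 1 gave more calls in both directions, among the members and among all probes alike. The Hnrnpa0 difference, which chose the family, ran from -1.59 to -1.39 over all alternatives, and that of Hnrnpk base 242 from -1.08 to -0.86. Settings of the filter or of the variance model cannot change a fold change, so these ranges come from the other alternatives.

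**Figure D2:**
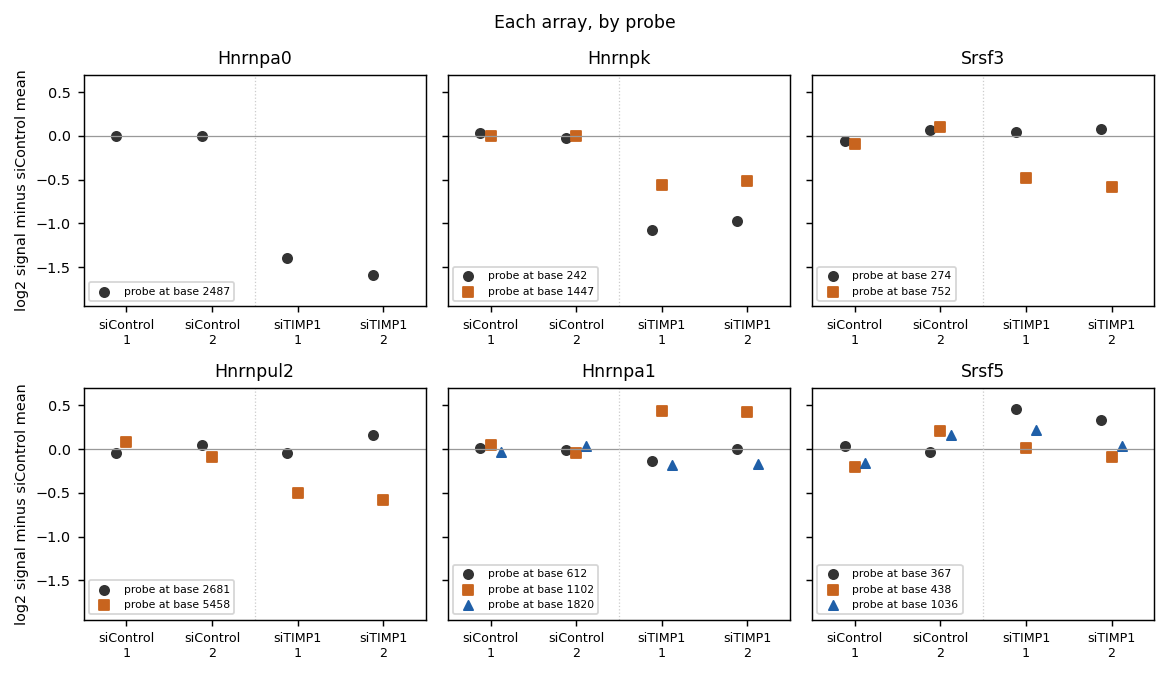
The log2 level of each tested probe on each of the 4 arrays, minus that probe's siControl mean (vertical axis), for 6 genes; symbols stand for probes, labelled by the base of the transcript where they start. Hnrnpa0 and both Hnrnpk probes are low on both siTIMP1 arrays, whereas for Srsf3 and Hnrnpul2 only 1 of 2 probes is.

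The other A/B-type genes had differences between -0.28 and 0.43, none called. Hnrnpa1, a splicing repressor that competes with SR proteins, had 3 tested probes that parted. The brightest, at base 1820 (chr15:103075254-103075313), read 5.49 and 5.55 with siControl and 5.34 and 5.35 with siTIMP1, a difference of -0.17 (SE 0.0512). The probe at base 612 differed by -0.07 (SE 0.0928), with overlapping groups. The probe at base 1102 (chr15:103076785-103076844), assigned to a transcript that RefSeq records as non-coding, read 1.56 and 1.46 with siControl and 1.94 and 1.93 with siTIMP1, a difference of 0.43 (SE 0.0798). Its siTIMP1 arrays were both above its siControl arrays, the reverse of the base 1820 probe. The base 1102 probe was called only when siControl replicate 1 was left out.

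Hnrnpa2b1, which sorts and transports mRNAs besides regulating splicing, was on the positive side with both probes. Its base 1343 probe read 4.43 and 4.27 with siControl and 4.64 and 4.71 with siTIMP1 (0.32, SE 0.0782), and the junction probe at base 789 differed by 0.19 (SE 0.109) with overlapping groups. Hnrnpa3 gave -0.17 and -0.28 on its junction probes and 0.03 (SE 0.0475) on its brightest probe, and the last of these turned negative under quantile normalization (-0.04) and under a percentile over detected probes (-0.02). Hnrnpd, the mRNA-decay factor AUF1, gave -0.06 and -0.08. Its relative Hnrnpdl gave 0.21 (SE 0.0556), from 4.59 and 4.65 to 4.83 and 4.83. Hnrnpab gave 0.13 (SE 0.0505).

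Hnrnpc, Hnrnpm and Hnrnpr, with 13 probes of which 11 were tested, had a median difference of -0.01 and no call. The 3 probes of Hnrnpc, which binds uridine tracts on nascent RNA, gave 0.03 to 0.12. Hnrnpm gave 0.01 on its brightest probe at base 2398 and -0.30 (SE 0.0918) at base 75, where levels were 2.73 and 2.53 with siControl and 2.31 and 2.35 with siTIMP1. Hnrnpr, with 7 probes the most of any member gene, gave -0.47 to 0.11 over its 6 tested probes. The lowest of these (base 4694, SE 0.42) was well above background on 3 of the 4 arrays and read -4.09 and -4.22 against -4.21 and -5.04, so 1 array made the difference. It was -0.06 with normexp background correction. This probe passed the filter only through siControl, being well above background there on both arrays and on 1 siTIMP1 array.

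Hnrnpf, Hnrnph1, Hnrnph2 and Hnrnph3, which bind runs of guanines, had 7 tested probes with differences from -0.28 to 0.32 and a median of -0.01. Hnrnpf gave -0.06 on its brighter probe and -0.28 (SE 0.0933) at base 455. Hnrnph1 gave -0.05 and Hnrnph2 gave 0.05 and 0.14, each with overlapping groups. Hnrnph3 gave -0.01 at base 1322 and 0.32 (SE 0.118) at base 183, where levels were -1.40 and -1.48 with siControl and -1.13 and -1.11 with siTIMP1.

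Hnrnpl and Hnrnpll, which bind CA-rich RNA, had 7 tested probes, of which 6 were negative (12251 of 26015 over all tested probes). The 7 probes measured only 2 genes and are not independent of each other, so the count is a description only. None of the 7 was called. Hnrnpl read 4.86 and 4.92 with siControl and 4.46 and 4.67 with siTIMP1 on its brightest probe (-0.33, SE 0.0843). Its base 1411 probe read 0.30 and 0.57 against -0.12 and 0.02 (-0.48, SE 0.13), whereas the probe at base 384 gave 0.00 (SE 0.169). On both negative probes the groups were apart. Hnrnpll, known for exon skipping in the Cd45 transcript of lymphocytes, gave -0.06 on each of its brighter probes at bases 1129 and 2137 and -0.41 (SE 0.198) at base 2206. Its widest value, -0.69 (SE 0.628) at base 1308, came from readings of -4.09 and -2.66 against -3.49 and -4.63, whose spread within each group exceeded the difference between groups. That value was -0.18 with normexp background correction and ran from -1.40 to 0.03 when 1 array was left out. The probe was well above background on both siControl arrays and on 1 siTIMP1 array. It was thus tested only through the group with the higher mean.

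Hnrnpu, the scaffold attachment factor that binds chromatin and RNA, gave -0.34 (SE 0.0606) on its brightest probe, from 4.73 and 4.69 with siControl to 4.42 and 4.33 with siTIMP1. Its other probes gave -0.19 and -0.04. Hnrnpul1 gave 0.07 and -0.02, with overlapping groups on both probes. Hnrnpul2 was divided: the base 5458 probe (chr19:8908365-8908424) read -0.21 and -0.38 with siControl and -0.80 and -0.87 with siTIMP1 (-0.54, SE 0.116), and the base 2681 probe (chr19:8904266-8904325) read -0.63 and -0.53 against -0.63 and -0.42 (0.06, SE 0.122). Both probes were assigned to 1 transcript, and only the one farther along it was lower on both siTIMP1 arrays.

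Of the SR proteins, 20 probes in 10 genes were tested and none was called by limma (6 at an unadjusted p under 0.05, 4 lower and 2 higher, or 30% against the 18.4% of all tested probes). Srsf1, the general splicing factor SF2/ASF, gave 0.13 (SE 0.0805). Srsf2, also called SC35, gave 0.10 (SE 0.0581). Srsf4 gave 0.04, Srsf7 gave 0.09, Srsf9 gave 0.07 and -0.01, and Srsf6 gave 0.16 and -0.03. The Srsf4 value turned to -0.005 under a percentile over detected probes.

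Srsf3, a small SR protein that also promotes mRNA export, had probes that parted. The base 274 probe read 3.67 and 3.80 with siControl and 3.77 and 3.81 with siTIMP1, a difference of 0.06 (SE 0.071) with overlapping groups that was -0.003 under quantile normalization. The base 752 probe read 3.46 and 3.66 with siControl and 3.08 and 2.97 with siTIMP1, a difference of -0.53 (SE 0.0924) that was not called. Both were assigned to 1 transcript. Within an array, the base 752 level minus the base 274 level was -0.21 and -0.14 with siControl and -0.69 and -0.83 with siTIMP1, so the gap between the probes was wider on both siTIMP1 arrays.

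Srsf5 was measured by 3 probes. The junction probe at base 438 read 1.66 and 2.06 with siControl and 1.87 and 1.77 with siTIMP1 (-0.04, SE 0.149). The probe inside its span, at base 367, read -0.43 and -0.50 with siControl and -0.01 and -0.13 with siTIMP1 (0.39, SE 0.105), so that sequence between the ends of the junction probe was higher on both siTIMP1 arrays without being called. The junction level minus the inner level was 2.09 and 2.56 with siControl and 1.88 and 1.91 with siTIMP1. The remaining probe gave 0.13 (SE 0.133) with overlapping groups.

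Srsf10, which turns into a splicing repressor when dephosphorylated, had the highest value of the members. Its base 666 probe (chr4:135423060-135423119) read 1.66 and 1.58 with siControl and 2.13 and 2.06 with siTIMP1 (0.48, SE 0.0789), not called. Its base 931 probe gave 0.22 (SE 0.202) with overlapping groups. Srsf11, an SR-related protein, had 5 tested probes that gave -0.38 to -0.17. The lowest, at base 1176, read 3.39 and 3.33 with siControl and 2.88 and 3.07 with siTIMP1 (SE 0.0877). On all 5 probes both siTIMP1 arrays were below both siControl arrays, as for 23.2% of all tested probes, and none was called. The 5 probes measured the same gene on the same arrays and are not independent of each other.

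The 8 untested probes were both probes of Srsf12 and 1 probe each of Hnrnpl, Hnrnpm, Hnrnpr, Srsf1, Srsf2 and Srsf11. Those of Hnrnpl and Srsf2 were well above background on 1 array and the other 6 on 0 arrays. Srsf12 was thus not well above background on any array by either probe.

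Some genes had probes that parted. Of 22 genes with more than 1 tested probe, 13 had probes that differed in sign or by more than 0.5, namely in sign in 12 genes and by more than 0.5 in 5. These counts have no share over all genes beside them and are no result about the family. Some sign differences rested on a value near 0, such as 0.003 for the highest Hnrnpl probe and 0.01 for that of Hnrnpm. The 5 were Hnrnpll (0.63 between its lowest and highest probe), Hnrnpa1 (0.60), Hnrnpul2 (0.60), Srsf3 (0.59) and Hnrnpr (0.58). In Hnrnpll and Hnrnpr the wide value was the dim probe described above. The within-array gap between a gene's lowest and highest probe, which were picked by their fold changes, did not overlap between the groups in 17 of the 22 genes, among the 5 in all but Hnrnpll. Picking probes in this way favours such a gap, and the share over all genes with several probes was not computed. The count is therefore no result about these genes. The remaining 9 genes kept 1 sign within 0.5, among them Hnrnpk, Hnrnpu, Hnrnpf and Srsf11. The 8 probes that crossed a splice junction, in 7 genes, gave -0.28 to 0.19, none called (2 at limma's unadjusted p under 0.05).

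Replicate spread set how far small differences could be read. The median absolute difference between the arrays of 1 group was 0.0897 for siControl and 0.11 for siTIMP1 over the members, against 0.145 and 0.118 over all tested probes. The difference between groups was larger than both within-group differences for 31 of 67 members (46.3%; 39.2% of all tested probes). Both siTIMP1 arrays lay below both siControl arrays for 24 members and above them for 11, where all tested probes gave 23.2% below, 29.8% above and 53% in either direction. An exact permutation test on 2 against 2 arrays cannot go below a two-sided p of 0.333, so none was used for a single probe.

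**Figure D3:**
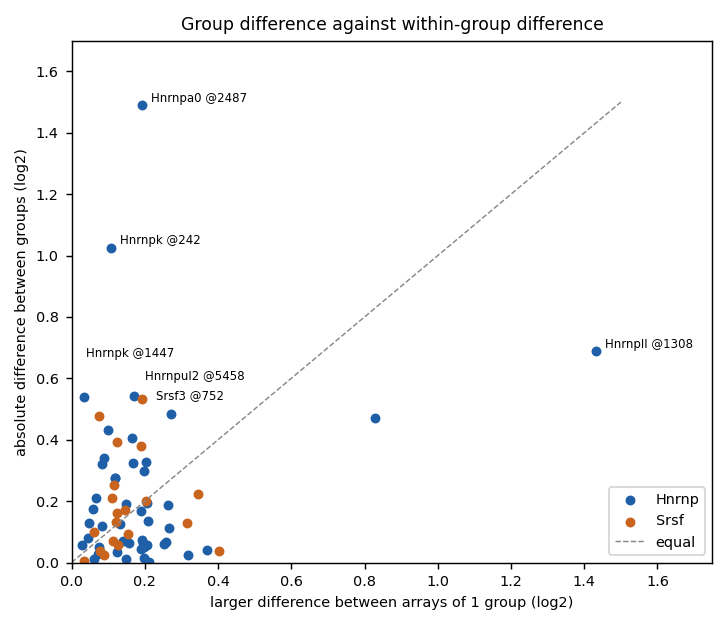
The absolute difference between groups (vertical axis, log2) against the larger of the within-group differences (horizontal axis, log2) for the 67 tested members; points above the dashed line differ more between groups than within either, and probes over 0.5 are labelled with the base where they start. Of the 67 points 31 lie above the line, and the Hnrnpll probe at base 1308 lies far below it.

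Hnrnpa0 and Hnrnpk both lie on chromosome 13, with probes 267 kb apart and other genes between them. The 13 probes between them were looked at after the values of both genes had been seen. Of these 6 were tested, in 5 genes, and 0 were called by limma. Leaving out Gm26555 for the reason given below, only the brighter Ubqln1 probe was at limma's unadjusted p under 0.05, and it was higher. Idnk gave -0.10, Ubqln1 gave 0.24 and 0.17, Gkap1 gave 0.11 and the transcript AK089905 gave 0.29. The probe of Gm26555 was not well above background on either siControl array and was well above it on both siTIMP1 arrays. It was thus tested only through the group where it was high, so no p-value is given for it. With siTIMP1 it was at least 3.74-fold higher against the lowest detected signal, and it was not called. None of the tested probes between Hnrnpa0 and Hnrnpk was lower by more than 0.10.

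**Figure D4:**
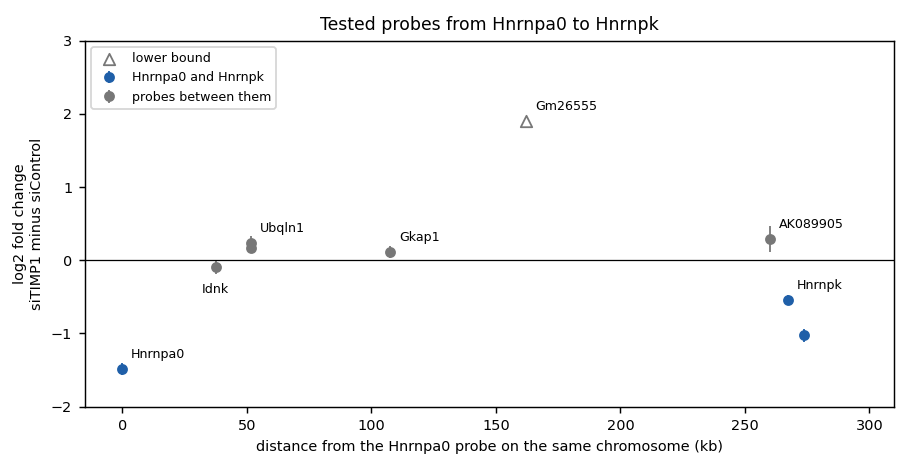
The log2 fold change with 1 SE (vertical axis) of tested probes against distance from the Hnrnpa0 probe in kb (horizontal axis); blue points are Hnrnpa0 and Hnrnpk, grey points the probes between them, and the open triangle is a lower bound. The blue points lie at -1.49, -0.54 and -1.03, and the grey ones at or above -0.10.

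The partners of these factors were followed with 4 lists, taking each gene's brightest tested probe. The lists were chosen with earlier results of these data known, so the p-values of their genes are descriptive. By that rule 0.703% of all 17647 tested genes were called lower and 0.085% higher, with a median of 0.02, and at limma's unadjusted p under 0.05 the shares were 7.99% lower, 11.9% higher and 19.8% in either direction. Among hnRNP-related and other RNA-binding splicing regulators 1 of 29 tested genes was lower and 0 higher (8 and 2 at limma's unadjusted p under 0.05), with a median of -0.09. The called gene was Pcbp3, which like Hnrnpk encodes a KH-domain protein binding C-rich RNA. It read 3.0 and 2.97 with siControl and 1.85 and 1.94 with siTIMP1, and fell by 1.09 (SE 0.0733, limma adjusted p = 0.0225). Its dimmer probe fell by 1.12 (limma adjusted p = 0.0416). The other poly(C)-binding genes, named after their values were seen, were not called: Pcbp1 gave 0.11, Pcbp2 gave 0.03 and Pcbp4 gave -0.19.

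Among SR-related proteins and SR protein kinases 1 of 27 tested genes was lower and 0 higher (5 and 11 at limma's unadjusted p under 0.05, where all genes gave 7.99% and 11.9%), with a median of 0.06. It was Tra2b, an SR-like activator of exons rich in purines, which read 5.06 and 5.19 with siControl and 4.09 and 3.91 with siTIMP1. Tra2b fell by 1.13 (SE 0.0883, limma adjusted p = 0.0249), and its other tested probe gave -0.94 (limma adjusted p = 0.0597). Tra2a, named after its value was seen, went the other way with 0.50 (SE 0.0916) and was not called.

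Among 54 genes of the core spliceosome 2 were lower and 0 higher (3 and 7 at limma's unadjusted p under 0.05), with a median of 0.06. Prpf38a, of the complex that precedes spliceosome activation, read 2.40 and 2.36 with siControl and 1.53 and 1.49 with siTIMP1. It fell by 0.87 (SE 0.0736, limma adjusted p = 0.0278), and its other tested probe gave -0.44. Slu7, needed for the choice of the 3′ splice site, read -0.04 and 0.11 with siControl and -1.01 and -0.98 with siTIMP1. It fell by 1.04 (SE 0.11, limma adjusted p = 0.0408), while its other tested probe gave -0.11. Slu7 was not called with normexp background correction (-0.72, limma adjusted p = 0.0571) or with outlier spots kept (limma adjusted p = 0.0513).

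Of 19 genes of nonsense-mediated decay and the exon junction complex, none was called by limma (at an unadjusted p under 0.05, 2 were higher and 1 was lower), with a median of 0.04. The smallest p-values belonged to Smg1, the kinase that acts on Upf1, and to Eif4a3, the helicase core of the exon junction complex. Smg1 gave -0.42 (limma adjusted p = 0.181) on its brightest probe and 0.41 on its other tested probe. Eif4a3 gave 0.24 (limma adjusted p = 0.215).

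**Figure D5:**
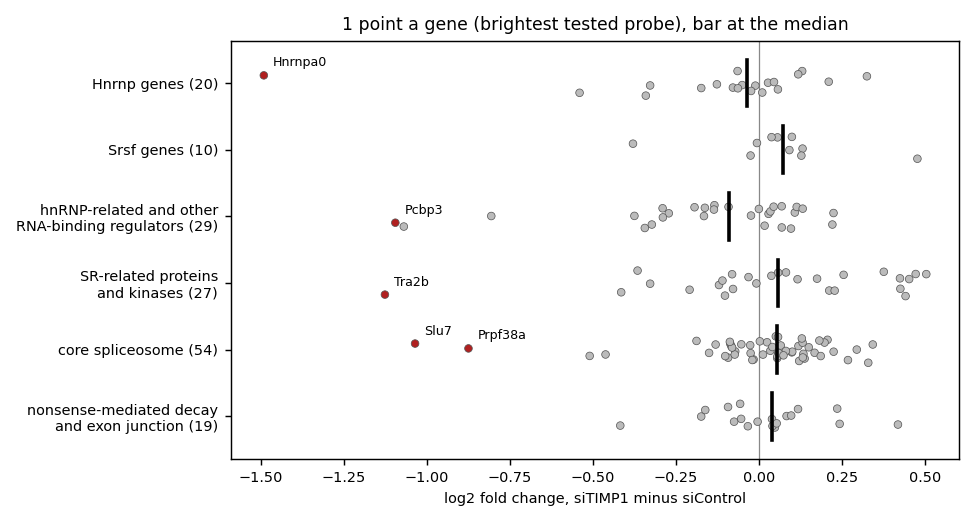
The log2 fold change (horizontal axis) of each gene by its brightest tested probe, for Hnrnp and Srsf genes and the 4 lists, with the number of genes in brackets; black bars are medians, points are spread vertically at random and red points are called. The medians lie between -0.09 and 0.07, and the named red points are Hnrnpa0, Pcbp3, Tra2b, Slu7 and Prpf38a.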

How the data were processed

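RNA of 4 samples was run on 1-colour Cy3 arrays. The authors deposited spot intensity as scanner files, whose processed signal is background-subtracted within each array per the file headers; the submitters' processing notes name Agilent Feature Extraction, version 11.5.1.1. The authors' value table holds log2 values. Each column equals the log2 processed signal minus a constant of 6.90 to 6.96, with column medians of -3.94 and -3.86 (siControl) and -3.99 and -3.91 (siTIMP1), and it was used as an alternative. Control and outlier-flagged spots (136 to 250 per array) were dropped, and spots of a probe averaged. No spot was saturated. limma 3.58.1 in R 4.3.3 (lmFit, eBayes with trend) compared the groups, with Benjamini-Hochberg adjustment. The number of arrays limits the precision.

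Replicate numbers follow accession order and only name samples. Members and lists were chosen with earlier results of these data known. Every member gene is named with its probes. In each list, called genes (up to 6, largest change) are named, or otherwise the 2 of smallest p. Pcbp1, Pcbp2, Pcbp4 and Tra2a are named beyond this rule. Scripts were tested on simulated data. Figures used matplotlib 3.10.9.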

Additional observations from a re-analysis of the deposited data

How the results depend on the processing

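Alternatives changed the background correction, scaling, filter, variance moderation, outlier handling, source of values, replicates and threshold. The 2 lower member calls became 4 with no filter, 0 with no mean-variance trend and 4 at an adjusted p under 0.1, and ranged from 0 to 4 when 1 array was left out. The 0 higher member calls became 1 with no filter and 1 at an adjusted p under 0.1, and ranged from 0 to 3 when 1 array was left out. The member median of -0.04 was -0.063 with quantile normalization, -0.081 with a percentile over detected probes and -0.011 with no filter, and ranged from -0.0500 to -0.0151 when 1 array was left out. Over all probes, 16 higher and 163 lower calls became 124 and 334 with no filter, 0 and 0 with no trend (limma, 4216 at an unadjusted p under 0.05), 61 and 249 with robust moderation and 181 and 384 at an adjusted p under 0.1. Leaving out 1 array gave 0 to 483 higher and 0 to 840 lower. Falls were 91.1% of calls in the reported fit, 72.9% with no filter, 80.3% with robust moderation, and 63.5% and 74.7% without siControl replicate 1 and 2. With no filter the median of all probes moved from 0.02 to 0.15. Timp1 stayed at -5.22 with no trend (limma adjusted p = 0.133) and ranged from -5.41 to -5.04 when 1 array was left out, not called without siTIMP1 replicate 1 (limma adjusted p = 0.137) or 2 (limma adjusted p = 0.184). Of 869 single member values over the alternatives, 852 kept their side of the threshold, 11 gained a call and 6 lost one. Of the 869, 44 in 25 probes had the opposite sign to the reported value, 33 of them with 1 array left out, and 0 of these were called. The cause of these shifts was not tested. Where an array was left out, the lone array of its group was assumed to vary like the other group. No paired analysis was possible because the labels give the groups no shared replicate numbers, and with all arrays on 1 slide no slide term was possible. Signal over background limits the 8 untested probes.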
